A study of Saccharomyces cerevisiae with 9 samples.

Results

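The genes described here are 9 genes of the eisosome and the Sur7 family of Saccharomyces cerevisiae, chosen by name from a table of 6268 features: PIL1 (YGR086C), LSP1 (YPL004C), SEG1 (YMR086W), EIS1 (YMR031C), SUR7 (YML052W), FMP45 (YDL222C), PUN1 (YLR414C), YNL194C and NCE102 (YPR149W). All 9 were measured on all 9 arrays. The study asked which genes depend on Ypk1 and Ypk2, a pair of kinases of which yeast needs at least 1 to live. In every culture both chromosomal copies were deleted (ypk1 delta ypk2 delta), and a plasmid carried a single kinase, either wild type (WT) or an analog-sensitive (AS) form that an ATP analog can block. The cells grew in SCD-Leu medium, and polyA RNA of AS cells (Cy5) and of WT cells (Cy3) was hybridised to the same array. AS Ypk1 was set against WT Ypk1 at 0, 15, 30 and 60 min of the inhibitor 2,3-DMB-PPI, and AS Ypk2 against WT Ypk2 at 0, 15, 30 and 60 min of 3-MB-PPI. The protocol gives the doses as 0.5 µM for the first inhibitor and 1 µM for the second. Both partners of an array received the inhibitor, so the WT cells are the control for the compound itself. A ninth array set WT Ypk2 cells against WT Ypk1 cells with no inhibitor. The promoter on the plasmids and the number of clones behind each strain are not given in the sources used here.

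Eisosomes are furrows of the yeast plasma membrane, coated from the inside by a lattice of the BAR domain proteins Pil1 and Lsp1, and they mark a membrane domain called MCC where several nutrient permeases gather. The tetraspan proteins of the Sur7 family and Nce102 sit in that domain. The Pkh kinases, which phosphorylate Pil1 and Lsp1, also activate Ypk1 and Ypk2, and the adaptors Slm1 and Slm2 leave eisosomes under membrane stress to bring Ypk kinases to TORC2, so the compartment lies directly upstream of the kinases inhibited here.

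Each value below is a log2 ratio of AS over WT on 1 array, after the array's median was subtracted. A value of 0 therefore means no difference from the typical gene, and 1 means 2-fold higher in AS cells relative to the typical gene. Folds given below are likewise relative to the array median. There was 1 array per condition, with no dye swap, so the 3 later arrays (15, 30 and 60 min) of a series served as repeated looks at inhibited cells. The p-values, from limma over 6220 features with Benjamini-Hochberg adjustment and a threshold of 0.05, measure the spread between times and not between cultures. A ratio of AS over WT also holds any difference between the strains or dyes that preceded the inhibitor, which the 0 min arrays show. The deposited array medians ran from −0.52 to 0.23. As a check of the labels, the ratio of YPK2 was 5.49 and that of YPK1 was −4.33 on the WT Ypk2 over WT Ypk1 array, and this array set the direction of the ratios. YPK1 itself stood at 0.73, 0.82, 2.44 and 1.55 at 0, 15, 30 and 60 min of the Ypk1 series, and YPK2 at 1.06, 1.36, 1.53 and 1.36 of the Ypk2 series. YPK2, deleted in the Ypk1 cultures, stood there at 0.25, 1.42, 0.52 and 0.95. Its later mean of 0.96 passed the test as higher, against 10.9% of features. YPK1, deleted in the Ypk2 cultures, stood there at −0.10, 0.20, 0.11 and −0.62 and did not pass. A ratio can thus pass for a gene that the cells are described as lacking, and the source of that signal was not tested.

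Over the 6 later arrays of both kinases, the ratio of YNL194C was raised and those of SUR7 and PUN1 were lowered in AS relative to WT cells, all of them Sur7 family genes. YNL194C was 2.04-fold higher, SUR7 1.81-fold lower and PUN1 2.28-fold lower. FMP45, the fourth family gene, and the other 5 genes did not pass the test. These 3 of 9 stand against 31.1% of all features tested that passed in the same comparison, so the count of the list as a whole lay near the background. By direction, 1 of 9 was higher, against 16.1% of features, and 2 of 9 were lower, against 15.1%. The median of the 9 fitted ratios was 0.03, and that of all features was 0.01.

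**Figure D1:**
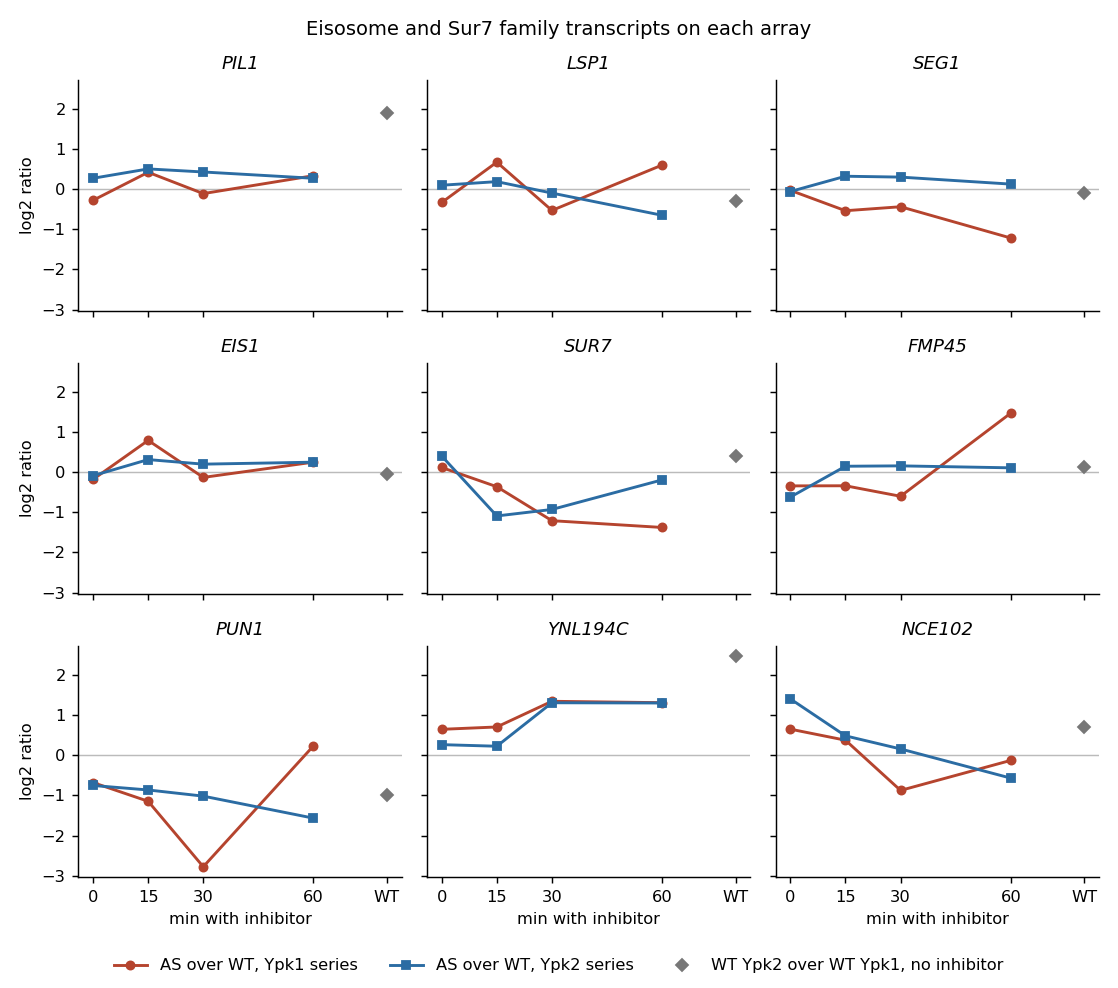
Log2 ratio of AS over WT, each array centred on its median (vertical axis), at 0, 15, 30 and 60 min of inhibitor (horizontal axis) for each of the 9 genes, 1 array per point. The Ypk1 and the Ypk2 series are drawn in their own colours, and a separate mark gives the WT Ypk2 over WT Ypk1 array. SUR7 lies below 0 at every later time in both series, YNL194C above 0, and SEG1 on opposite sides of 0 in the 2 series.

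SUR7 encodes the founding member of the family, a tetraspan protein that gives the MCC patches their usual marker. Its ratio was 0.12, −0.36, −1.21 and −1.38 at 0, 15, 30 and 60 min of the Ypk1 series. With AS Ypk2 it was 0.40, −1.09, −0.93 and −0.19. All 6 later ratios lay below 0, which 15.2% of all features also showed, and all 6 lay below both 0 min ratios, which 7.62% showed. The lowest ratio of the Ypk1 series was the last, and that of the Ypk2 series the first after inhibition. The mean of both kinases was −0.86 ± 0.19 (SE, 6 arrays; limma adjusted p = 0.0101). In the Ypk1 series alone SUR7 was 1.98-fold lower (−0.98 ± 0.27; limma adjusted p = 0.0327), 1 of 3 members that passed there against 21.5% of features (1 higher, against 10.9%, and 2 lower, against 10.5%). In the Ypk2 series alone its mean was −0.74 ± 0.27 (limma adjusted p = 0.116), and no member passed, against 11.7% of features (6.98% higher and 4.73% lower). The mean over both kinases no longer passed without the 2 arrays at 30 min (−0.76, limma adjusted p = 0.115), and the Ypk1 value did not pass without its 30 min array (−0.87, limma adjusted p = 0.120) or its 60 min array (−0.79, limma adjusted p = 0.154).

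PUN1 encodes a Sur7 family protein of the MCC that is known to be induced under nitrogen stress. Its ratio was −0.68, −1.15, −2.78 and 0.23 at 0, 15, 30 and 60 min of the Ypk1 series. The Ypk2 series gave −0.75, −0.87, −1.02 and −1.57. The gene was thus below 0 on 7 of the 8 arrays, the 0 min arrays included, and above 0 only at 60 min of the Ypk1 series. At 30 min of the Ypk1 series it had the 6th lowest ratio of 6266 features, and its range over the 8 arrays, 3.01, was at the 95.1 percentile of all features. The mean of both kinases was −1.19 ± 0.33 (SE, 6 arrays; limma adjusted p = 0.0250). Neither series passed alone, with −1.23 ± 0.46 in the Ypk1 series (limma adjusted p = 0.0907; without centring −1.51, limma adjusted p = 0.0392) and −1.15 ± 0.46 in the Ypk2 series (limma adjusted p = 0.147). The later mean of both kinases lay 0.47 below the 0 min mean, with a change of −0.47 ± 0.66 (limma adjusted p = 0.833); over 8 alternatives this change ran from −0.76 to 0.17 and passed under 0. The call was lost when any of 4 single arrays was left out, the Ypk1 15 min array (limma adjusted p = 0.0563) and the Ypk2 arrays at 15, 30 and 60 min (limma adjusted p = 0.0502, 0.0583 and 0.0796). It was also lost without both 30 min arrays, with a mean of −0.84 (limma adjusted p = 0.104). Without its 60 min array the Ypk1 mean was −1.96 and passed (limma adjusted p = 0.0295).

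YNL194C encodes a paralogue of Fmp45, and both are known for a role in sporulation and in the sphingolipid content of the membrane. Its ratio was 0.64, 0.70, 1.34 and 1.31 at 0, 15, 30 and 60 min of the Ypk1 series. At the same times of the Ypk2 series it was 0.26, 0.22, 1.31 and 1.30. It was the only member above 0 on all 6 later arrays, which 14.9% of features also were. Its ratios at 30 and 60 min were alike in the 2 series, between 1.30 and 1.34, while those at 15 min were near those at 0 min. The mean of both kinases was 1.03 ± 0.19 (SE, 6 arrays; limma adjusted p = 0.00433). It was 2.17-fold higher in the Ypk1 series (1.12 ± 0.27, limma adjusted p = 0.0203) and averaged 0.94 ± 0.27 in the Ypk2 series (limma adjusted p = 0.0556). The mean of both kinases did not pass without the 30 min arrays (0.88, limma adjusted p = 0.0727) or without the 60 min arrays (0.89, limma adjusted p = 0.0634). The Ypk1 value did not pass without its 30 min array (1.01, limma adjusted p = 0.0859), without its 60 min array (1.02, limma adjusted p = 0.0938) or without centring (0.84, limma adjusted p = 0.0603), while the Ypk2 value passed without its 15 min array (1.30, limma adjusted p = 0.0344).

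FMP45 did not follow YNL194C. Its ratio was −0.34, −0.34, −0.60 and 1.47 at 0, 15, 30 and 60 min of the Ypk1 series. With AS Ypk2 it was −0.62, 0.15, 0.16 and 0.11. The 60 min array of the Ypk1 series was the only one on which it passed 2-fold. Its mean of both kinases was 0.16 ± 0.25 (limma adjusted p = 0.672), and the 95% interval ran from −0.42 to 0.74. The mean of the Ypk1 series, 0.18 with that array, was −0.47 without it.

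PIL1 and LSP1, the paralogues that build the eisosome lattice, stayed under 2-fold on each of the 8 arrays of the time courses. PIL1 had ratios of −0.28, 0.42, −0.11 and 0.34 at 0, 15, 30 and 60 min of the Ypk1 series. The Ypk2 series gave 0.27, 0.50, 0.43 and 0.27. Its range of 0.78 was the narrowest among the 9 genes, at the 8.39 percentile of all features. LSP1 had ratios of −0.33, 0.67, −0.53 and 0.60 in the Ypk1 series. At the same times of the Ypk2 series they were 0.10, 0.19, −0.10 and −0.65. After centring, both genes went up and down together over the Ypk1 series. At 30 and 60 min of the Ypk2 series centred LSP1 was below 0 and PIL1 above it. Both readings lean on the centring. As deposited, PIL1 went from −0.04 to −0.10 between 0 and 15 min of the Ypk1 series, and LSP1 from −0.10 to 0.15. The deposited PIL1 ratio at 60 min of the Ypk2 series was −0.10. The mean of both kinases was 0.31 ± 0.14 for PIL1 (limma adjusted p = 0.129; 95% interval −0.01 to 0.63) and 0.03 ± 0.20 for LSP1 (limma adjusted p = 0.924; 95% interval −0.43 to 0.49).

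SEG1, whose product stabilises eisosomes and acts before Pil1 in their assembly, was lower in the Ypk1 series. Its ratio was −0.03, −0.54, −0.44 and −1.22 at 0, 15, 30 and 60 min of that series. With AS Ypk2 it was −0.06, 0.32, 0.30 and 0.13. After centring, the 3 later ratios were below 0 and below the 0 min ratio with AS Ypk1, and above both with AS Ypk2. As deposited, the later ratios with AS Ypk2 were 0.13, −0.006 and −0.25. SEG1 was 1.66-fold lower in the Ypk1 series (−0.73 ± 0.22, limma adjusted p = 0.0431) and averaged 0.25 ± 0.22 in the Ypk2 series (limma adjusted p = 0.508). Leaving out any later array of the Ypk1 series ended the call, with limma adjusted p of 0.0616 without 15 min, 0.0542 without 30 min and 0.191 without 60 min, the last with a mean of −0.49. In all, the call held under 3 of 12 alternatives and was lost under 9. In the mean of both kinases SEG1 averaged −0.24 (limma adjusted p = 0.262), and it passed without centring (−0.53, limma adjusted p = 0.0308).

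EIS1, which encodes an eisosome component of the cytosolic face, had ratios of −0.18, 0.79, −0.13 and 0.25 at 0, 15, 30 and 60 min of the Ypk1 series. The Ypk2 series gave −0.09, 0.31, 0.20 and 0.25. The later ratios lay above 0 on 5 of 6 arrays and never reached 2-fold. Its mean of both kinases was 0.28 ± 0.16 (limma adjusted p = 0.206; 95% interval −0.08 to 0.63).

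NCE102 encodes a tetraspan protein that is needed for eisosome formation and is regarded as a sensor of sphingolipids acting on the Pkh kinases. Its ratio was 0.65, 0.37, −0.88 and −0.13 at 0, 15, 30 and 60 min of the Ypk1 series. At the same times of the Ypk2 series it was 1.40, 0.48, 0.16 and −0.57. The 0 min arrays held its highest ratio in each series, and the one of the Ypk2 series was the 83rd highest of 6268 features. In the Ypk2 series each later array was lower than the one before it. The later mean of both kinases was −0.09 ± 0.21 (limma adjusted p = 0.756), which hides this order in time.

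**Figure D2:**
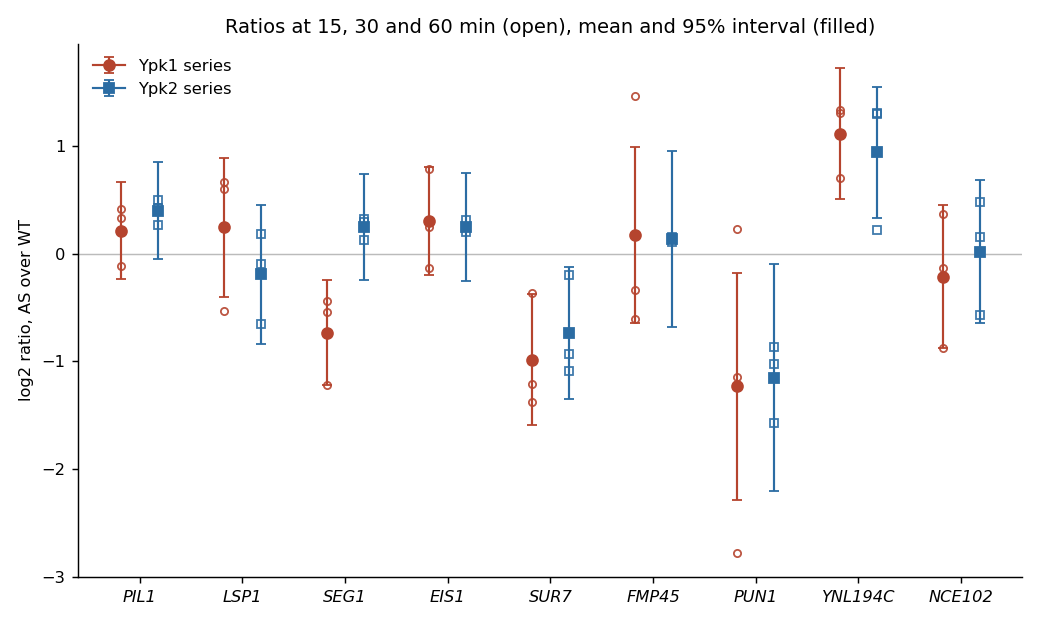
Log2 ratio of AS over WT, centred per array, on the 3 later arrays of each series for the 9 genes, with 1 open point per array and the mean of each series with its 95% interval from limma (filled point and bar); the Ypk1 series stands before the Ypk2 series. The points of SEG1 separate by kinase, whereas those of SUR7 lie below 0 and those of YNL194C above 0 in both.

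No member differed between the kinases by the test of the difference itself. In that comparison 0% of features passed, and 9.68% had an unadjusted limma p under 0.05. Among the 9 genes only SEG1 had one, with a Ypk1 minus Ypk2 difference of −0.98 ± 0.31 (95% interval −1.68 to −0.28, limma adjusted p = 0.440). SEG1 was also the 1 member whose 3 later centred ratios had one sign in the Ypk1 series and the other in the Ypk2 series, which 2.73% of features showed. For SUR7 the difference was −0.25 (95% interval −1.11 to 0.62), for YNL194C 0.17 (−0.69 to 1.04) and for PUN1 −0.08 (−1.57 to 1.41), all by limma. These intervals allow differences of more than 1.5-fold either way.

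Subtracting the 0 min array of each series takes off what preceded the inhibitor, at the price of resting on 1 array per kinase. None of the 9 genes passed for this change in the Ypk1 series, against 0.0482% of features, in the Ypk2 series, against 0%, or in the mean of both, against 0.0643%. At an unadjusted limma p under 0.05, 11.3%, 5.16% and 13.3% of features had a change. In the mean of both kinases SUR7 and NCE102 met that looser limit, and they were the 2 members whose 6 later ratios all lay below both 0 min ratios; 0 members lay above both, against 7.65% of features. SUR7 averaged −0.86 on the later arrays and 0.26 at 0 min, a change of −1.12 ± 0.38 (limma adjusted p = 0.235). NCE102 averaged −0.09 on the later arrays and 1.02 at 0 min, a change of −1.12 ± 0.41 (limma adjusted p = 0.267). YNL194C, the highest later mean of the 9, averaged 1.03 on the later arrays and 0.45 at 0 min, a change of 0.58 ± 0.38 (limma adjusted p = 0.588).

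**Figure D3:**
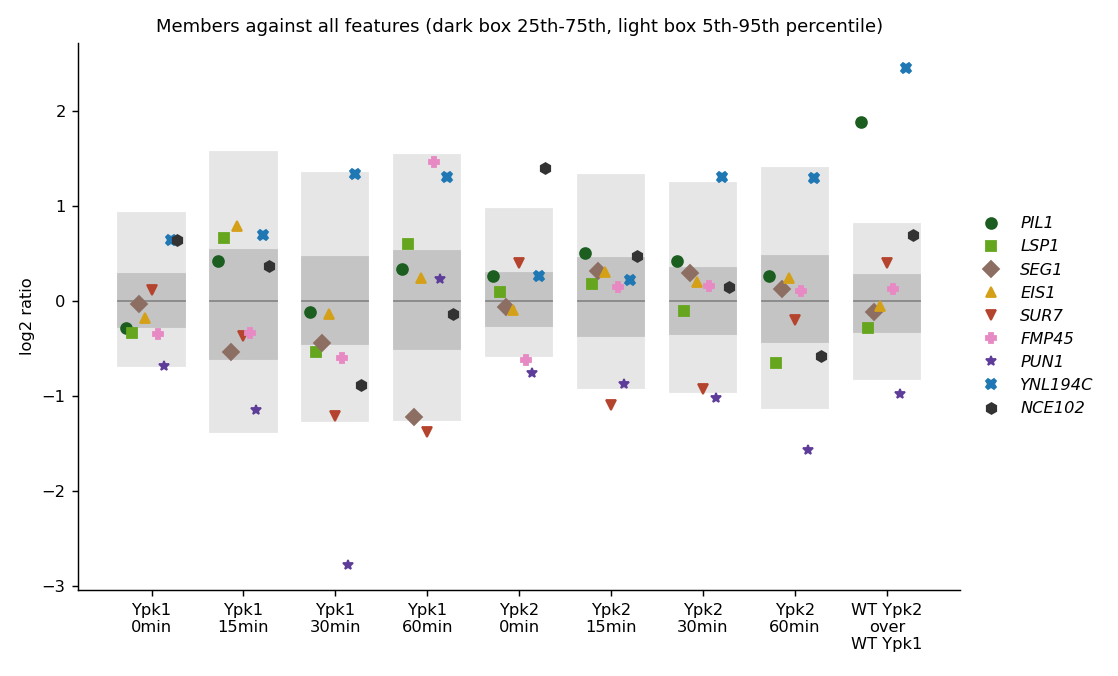
Log2 ratio of AS over WT, centred per array, of the 9 genes (points) over the spread of all features (dark box 25th to 75th percentile, light box 5th to 95th) on each of the 9 arrays. The PUN1 point at 30 min of the Ypk1 series, at −2.78, lies among the lowest features, and the YNL194C and PIL1 points on the WT Ypk2 over WT Ypk1 array, at 2.46 and 1.89, among the highest.

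On single arrays, 16 of the 81 values of these genes were at least 2-fold from the array median. In the Ypk1 series 0 of 9 genes were past 2-fold at 0 min, against 5.98% of features. At 15 min it was PUN1 alone, against 24.9%. At 30 min PUN1, SUR7 and YNL194C were, against 18.9%. At 60 min FMP45, SEG1, SUR7 and YNL194C were, against 21.3%. In the Ypk2 series NCE102 alone was past 2-fold at 0 min, against 4.83% of features. At 15 min it was SUR7 alone, against 13.1%. PUN1 and YNL194C were past it at 30 min, against 12.1%, and again at 60 min, against 16.7%. Over the 8 arrays 6 of 9 genes passed 2-fold at least once, against 55.6% of features. The median range of the 9 genes was 1.54, close to the 1.40 of all features.

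Without inhibitor, cells living on WT Ypk2 and cells living on WT Ypk1 also differed in some of these genes. On that array 2 of 9 were past 2-fold, against 5.09% of features. YNL194C was 5.51-fold higher in WT Ypk2 than in WT Ypk1 cells, a ratio of 2.46 that was the 5th highest of 6266 features. PIL1 was 3.69-fold higher, a ratio of 1.89 and the 16th highest. The ratio of its paralogue LSP1 was −0.29. PUN1 stood at −0.98, NCE102 at 0.70, SUR7 at 0.40, FMP45 at 0.13, SEG1 at −0.11 and EIS1 at −0.05. This was a single array with no replicate, so no spread between cultures stands behind these values.

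Further genes of the compartment, 22 in all, were counted in full. Over both kinases 6 of them were higher in AS cells and 2 were lower, 8 of 22 against the 31.1% of all features. MSC3, which encodes a protein found at eisosomes, was at −0.02, 1.22, 1.29 and 1.13 at 0, 15, 30 and 60 min of the Ypk1 series. In the Ypk2 series it was at 0.05, 0.98, 1.03 and 1.25. It was near 0 at the start of both series. On each later array it was about 2-fold or more higher in AS cells relative to the array median, and its mean was 1.15 (limma adjusted p = 0.000530). PKH2, a kinase that phosphorylates Pil1 and activates Ypk kinases, averaged 0.66 (limma adjusted p = 0.00729). The genes of flavodoxin-like proteins of the MCC were higher too, with PST2 at 0.89 (limma adjusted p = 0.0139), RFS1 at 0.73 (limma adjusted p = 0.0384) and YCP4 at 0.48 (limma adjusted p = 0.0380). In the Ypk2 series YCP4 stood at only −0.22, 0.08 and 0.22 at 15, 30 and 60 min. It was the 1 gene of the 22 with an unadjusted limma p under 0.05 for the difference between kinases, against 9.68% of features. INP51 and INP52, which encode phosphoinositide phosphatases, had later means on opposite sides of 0: INP52 averaged 0.96 (limma adjusted p = 0.0275) and INP51 −0.59 (limma adjusted p = 0.0193). INP52 already stood at 2.22 at 0 min of the Ypk1 series, and its later ratios there were lower, at 0.89, 1.05 and 0.99. In the Ypk2 series INP52 stood at 2.38, 0.22 and 0.27 at 15, 30 and 60 min, so its later mean there rests mostly on the 15 min array. Of 14 alternatives, the call of MSC3 held under 14, of PKH2 under 11, of PST2 and INP51 under 9, of INP52 under 7, and of RFS1 and YCP4 under 6; those of RFS1, YCP4, PST2, PKH2 and INP52 did not hold when the arrays were left uncentred.

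Among the 5 permeases of the MCC (CAN1, FUR4, TAT2, LYP1 and MUP1), the median of the means of both kinases was −0.50. MUP1, the methionine permease, was lower, at −0.56 (limma adjusted p = 0.0181), a call that held under 8 of 14 alternatives (limma adjusted p up to 0.118). MUP1 already stood at −0.60 at 0 min of the Ypk2 series, where its later mean was −0.49. At 0 min of the Ypk1 series it stood at 0.56. FUR4, the uracil permease, was lower in the Ypk1 series alone, at −0.85 (limma adjusted p = 0.0483), a call that none of the 3 fits without 1 later Ypk1 array kept. TAT2, the tryptophan permease, passed in neither series nor in the mean of both. It reached −1.10 at 60 min of the Ypk1 series and −1.19 at 15 min of the Ypk2 series. Its other later ratios were −0.22 and −0.39 at 15 and 30 min with AS Ypk1, and −0.25 and 0.17 at 30 and 60 min with AS Ypk2. In the Ypk1 series 3 of 22 partner genes passed, MSC3 and YCP4 higher and FUR4 lower, against 21.5% of features. In the Ypk2 series 2 of 22 passed, MSC3 and PKH2, both higher, against 11.7%. PKH1, the paralogue of PKH2, reached 1.07 at 60 min of the Ypk1 series, and XRN1, an exoribonuclease found at eisosomes, reached −1.42 at 60 min of the Ypk2 series. These were the only arrays on which they passed 2-fold, and neither gene passed in a series or in the mean of both.

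**Figure D4:**
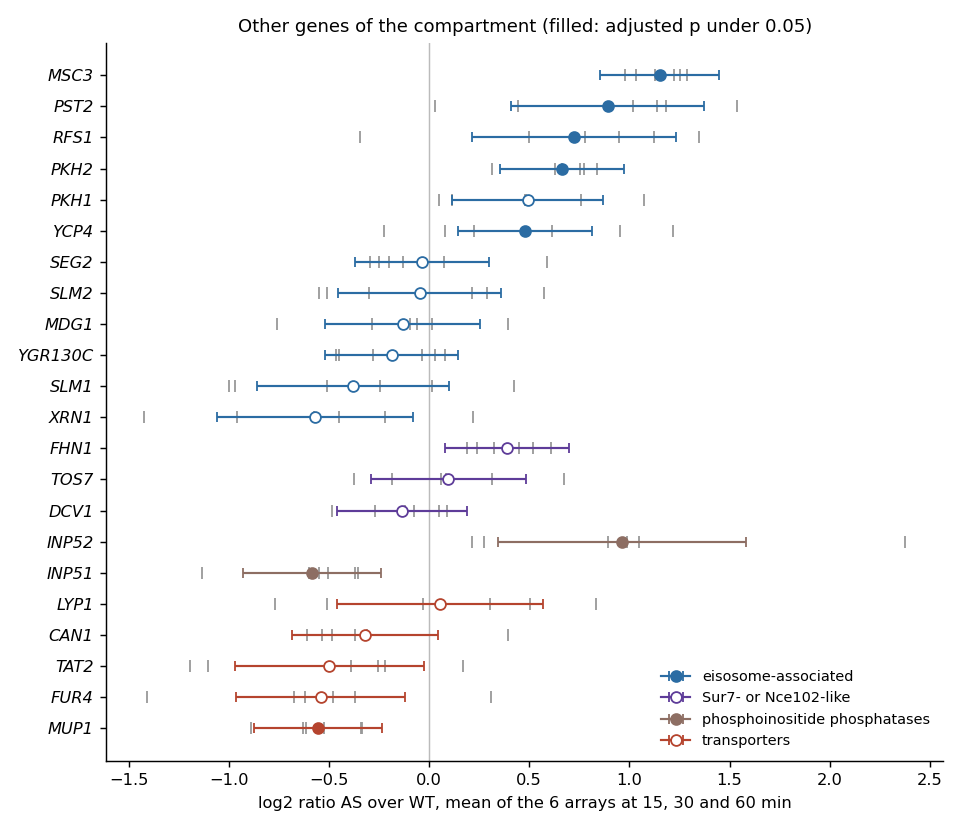
Mean log2 ratio of AS over WT, centred per array, over the 6 later arrays of both kinases (horizontal axis) for the 22 further genes of the compartment, coloured by role. Circles are means, filled where the limma adjusted p was under 0.05, bars are 95% intervals, and grey ticks are single arrays. MSC3 is the highest, at 1.15, and 4 of the 5 permeases lie below 0.

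Sur7 family genes are also known to rise in other states of the cell, so markers of those states were read beside them. The lists of these markers were chosen with earlier results of these data known, so their counts are description and not independent support. Of 6 genes of stationary phase 4 were higher over both kinases, against 16.1% of all features. These were SPG4 at 2.31, SNZ1 at 1.98, SNO1 at 1.91 and SPG5 at 1.00, while SPG1 and HSP26 did not pass. The median ratio of the 6 was 0.51, 0.33, 1.56 and 2.10 at 0, 15, 30 and 60 min of the Ypk1 series. It was 0.14, 0.80, 1.56 and 2.27 in the Ypk2 series and 0.99 on the WT Ypk2 over WT Ypk1 array. YNL194C was high on the same arrays, at 30 and 60 min of both series and on the WT array, and the part of this state in its ratio was not tested. In RNA of whole cultures, a larger share of cells in such a state and more RNA per cell cannot be told apart. Of 8 genes of sporulation, IME1, the inducer of meiosis, was higher at 1.09 and SPO11, the nuclease that starts recombination, was lower at −0.44 (limma adjusted p = 0.0498). The SPO11 call held under 3 of 14 alternatives (limma adjusted p up to 0.241), and that of IME1 under 14. These 2 of 8 stand against 31.1% of all features, and the other 6 did not pass, NDT80 and SPS4 of the middle programme among them, and the median of the 8 was −0.08.

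By the smallest root mean square difference over the 9 arrays, among 6218 features, the 3 members of widest range had these nearest patterns. PUN1 was nearest to YMR151W (0.37), RQC1 (0.47) and ERG9 (0.48), the gene of squalene synthase. NCE102 was nearest to PMP2 (0.31), ARO5 (0.34) and RPS28A (0.35). PMP2 encodes a small proteolipid tied to the plasma membrane proton pump, and RPS28A a ribosomal protein. FMP45 was nearest to LPL1 (0.31), ZPS1 (0.33) and ART10 (0.34). LPL1, ZPS1 and ART10 also had their highest ratio at 60 min of the Ypk1 series, at 0.85, 1.16 and 1.06. No other member was among the nearest 3, and the points share arrays and so any fault of an array.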

How the data were processed

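Two-colour arrays of polyA RNA gave 1 value per feature and array. The deposited values are log2 ratios: as ratios 100% of 55270 testable values fall on a grid of 0.001 under log2, against 7.39% under log10. The authors' normalization and scanner steps are not given in the sources used here. Each array was centred on its median. Names came from RefSeq R64 (5777 features matched, 491 not). The fit (limma 3.58.1, R 4.3.3) took the 6220 features complete over the 8 arrays of both time courses and left out 48. It had 4 means (each kinase at 0 min and later, 4 residual degrees of freedom), with Benjamini-Hochberg adjustment over all of them. The number of arrays limits the precision. The fit was run on simulated data with independent noise on each array. That setting holds no dependence between times and no offset of strain or dye, so it cannot speak to these limits.

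All 9 genes are named; 22 further genes are named where they passed a test or reached 2-fold, and the nearest patterns by root mean square difference. Members and lists were chosen with earlier results of these data known. Alternatives changed the centring, scaling, times, arrays, weights and features tested.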

Additional observations from a re-analysis of the deposited data

Results flagged for a closer look

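SEG1 stood out because, after centring, every later array of the Ypk1 series lay below 0 and every later array of the Ypk2 series above it. As deposited, its ratios at 15, 30 and 60 min of the Ypk2 series were 0.13, −0.006 and −0.25, so the opposite signs depend on the centring. The Ypk1 minus Ypk2 difference was −0.98, with a later mean of −0.73 for Ypk1 and 0.25 for Ypk2. The test of this difference across all features did not pass (limma adjusted p = 0.440), and 2.73% of all features showed such opposite signs. The call of SEG1 in the Ypk1 series alone held under 3 of 12 alternatives.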

How the results depend on the processing

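SUR7 was called lower over both kinases under 13 of 14 alternatives, YNL194C higher under 12 and PUN1 lower under 8. In the Ypk1 ratio the call held under 7 of 12 alternatives for YNL194C, 5 for SUR7 and 3 for SEG1. The cause of each change below was not tested. Members passing in the Ypk1 ratio numbered 3, against 1 with arrays scaled to one spread, 1 with quantile normalization, 0 without both 30 min arrays, 1 without both 60 min arrays, 1 with its own series only and 0 to 2 with 1 later array left out; without centring they were also 3, with PUN1 gained and YNL194C lost. In the Ypk2 ratio they numbered 0, against 1 without centring (SUR7), 1 with scaling, 1 with quantile normalization, 1 without both 15 min arrays, 1 with its own series only (PUN1), 6 with array weights and 0 to 1 with 1 array left out. For the mean of both they numbered 3, against 4 without centring (SEG1 gained), 0 without both 30 min arrays, 2 without both 15 min arrays (PUN1 lost), 2 without both 60 min arrays (YNL194C lost) and 2 to 3 with 1 array left out. For the mean change they numbered 0, against 2 with array weights (SUR7 and NCE102). The weights stopped before their convergence tolerance. Member values past 2-fold numbered 16, and 32 passed 1.5-fold. Over all features, 1335 passed in the Ypk1 ratio, against 257 without 30 min, 313 without 60 min and 645 with its own series only. In the Ypk2 ratio 728 passed, against 0 without 30 min, 0 without 60 min, 1214 with scaling, 1156 with quantile normalization and 4157 with array weights. For the mean 1937 passed, against 705 without 30 min and 841 without 60 min. With arrays left uncentred the median of all ratios was −0.29 (Ypk1), −0.28 (Ypk2) and −0.27 (mean), against −0.01, 0.01 and 0.01 with centring. Leaving out each array in turn was added after seeing the data. No paired analysis was possible because the labels give no replicate numbers and 1 array per condition; with time of sampling as a block, 0 members differed between kinases.

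In all, 57 values of members turned their sign under an alternative, and 0 of them passed the test in either setting. Without centring, the Ypk1 ratio was −0.066 for PIL1, −0.034 for LSP1 and −0.10 for FMP45, the Ypk2 ratio was −0.043 for SEG1, −0.038 for EIS1, −0.15 for FMP45 and −0.27 for NCE102, the mean ratio was −0.26 for LSP1, −0.0081 for EIS1 and −0.13 for FMP45, the Ypk1 change was −0.023 for PIL1, −0.032 for EIS1 and −0.042 for YNL194C, and the mean change was −0.14 for LSP1. Without both 60 min arrays, the Ypk1 ratio was −0.47 for FMP45, the Ypk2 ratio was 0.045 for LSP1, the mean ratio was −0.16 for FMP45 and 0.033 for NCE102, the difference was 0.22 for SUR7 and −0.62 for FMP45, and the Ypk1 change was −0.13 for FMP45. Without both 30 min arrays, the Ypk1 ratio was 0.12 for NCE102, the Ypk2 ratio was −0.045 for NCE102, the mean ratio was 0.039 for NCE102, the difference was 0.76 for PUN1 and 0.17 for NCE102, and the Ypk1 change was 0.22 for PUN1. Without both 15 min arrays, the Ypk2 ratio was −0.21 for NCE102, the mean ratio was −0.17 for LSP1, the difference was −0.16 for EIS1 and 0.021 for PUN1, and the mean change was −0.052 for LSP1. With arrays scaled to one spread, the mean ratio was −0.0071 for LSP1, the difference was −0.046 for EIS1, −0.014 for FMP45, 0.13 for PUN1 and −0.071 for YNL194C, and the Ypk1 change was −0.034 for YNL194C. With quantile normalization, the difference was −0.017 for EIS1, 0.023 for SUR7 and 0.16 for PUN1, the Ypk1 change was 0.021 for PUN1, the Ypk2 change was 0.31 for PUN1, and the mean change was 0.17 for PUN1. With array weights, the difference was 0.080 for PUN1 and −0.068 for YNL194C. With 1 later array left out, the ranges that crossed 0 were the Ypk1 ratio of FMP45 from −0.47 to 0.57, the Ypk1 ratio of NCE102 from −0.50 to 0.12, the Ypk2 ratio of LSP1 from −0.37 to 0.045, the Ypk2 ratio of NCE102 from −0.21 to 0.32, the mean ratio of LSP1 from −0.076 to 0.22, the mean ratio of FMP45 from −0.17 to 0.35 and the mean ratio of NCE102 from −0.24 to 0.072.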
